A study of Phycomyces blakesleeanus with 24 samples.

Results

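MadA and WcoA are the genes of Phycomyces blakesleeanus that carry those symbols in the RefSeq gene table of assembly Phybl2, where they have the locus tags PHYBLDRAFT_184132 and PHYBLDRAFT_77612. They are 2 of 14490 genes listed in any of the 4 comparisons of light with darkness, and both were measured in all 4. Phycomyces is a filamentous fungus that grows as a mycelium, the mat of feeding hyphae, and raises sporangiophores, the aerial stalks that carry its spores. The strains were a wild type and ΔL51, labelled a mutant in photoreceptors, and both were grown on PDA (potato dextrose agar) in light or in darkness. For each strain, mycelium and sporangiophores were sampled separately, which gave 8 groups of 3 libraries, 24 in all. The authors set aside 4 libraries because they varied more than their replicates, so the outcome itself decided which libraries were kept. In the wild type this left 2 dark and 3 light libraries of mycelium and 2 of each kind of sporangiophores. In the mutant it left 3 of each kind of mycelium and 2 dark and 3 light of sporangiophores. The duration and colour of the light and the age of the cultures are not given in the sources used here, nor is it said whether the mutant was 1 isolate. The labels do not name the mutated genes. As background from work on this fungus, strain L51 is known to carry mutations in madA and madB, so MadA may be a mutated gene in the strain whose transcripts are described here.

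White Collar 1 is a blue-light photoreceptor of fungi that binds a flavin in its LOV domain, and in Neurospora crassa it also acts as a transcription factor together with its partner White Collar 2. In Neurospora this complex activates genes after exposure to light. Phycomyces has several White Collar 1 genes. MadA is the one needed for phototropism of the sporangiophore and for the induction of carotene synthesis by light, and WcoA is a related gene from the same family.

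Each comparison is described here by the values that the authors deposited, namely a log2 fold change of light over dark, an average log2 CPM (reads scaled to the size of the library, on a log2 scale), a likelihood ratio, a p-value and a false discovery rate (FDR) over the table. A gene is called where that FDR is under 0.05. A positive fold is taken to mean more transcript in light, because the titles put light first and the headers give no direction. Neither values per library nor library totals were used here. The depth is therefore unknown, no level in the light or in the dark can be given, and the spread between replicates enters through the authors' test alone. The approximate 95% intervals below come from a standard error equal to the size of the fold divided by the square root of its likelihood ratio. As strains, structures and kept libraries differ between the 4 tables, a fold in one cannot show how much transcript the other held. Since the tissue was sequenced in bulk, a change in the share of cells that express a gene and a change in transcript per cell cannot be told apart.

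WcoA was strongly higher in light in wild type mycelium, modestly higher in wild type sporangiophores and not called in either structure of the mutant. MadA was not called in any of the comparisons, and its folds stayed within 0.66 of each other on the log2 scale, against 5.02 for WcoA.

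**Figure D1:**
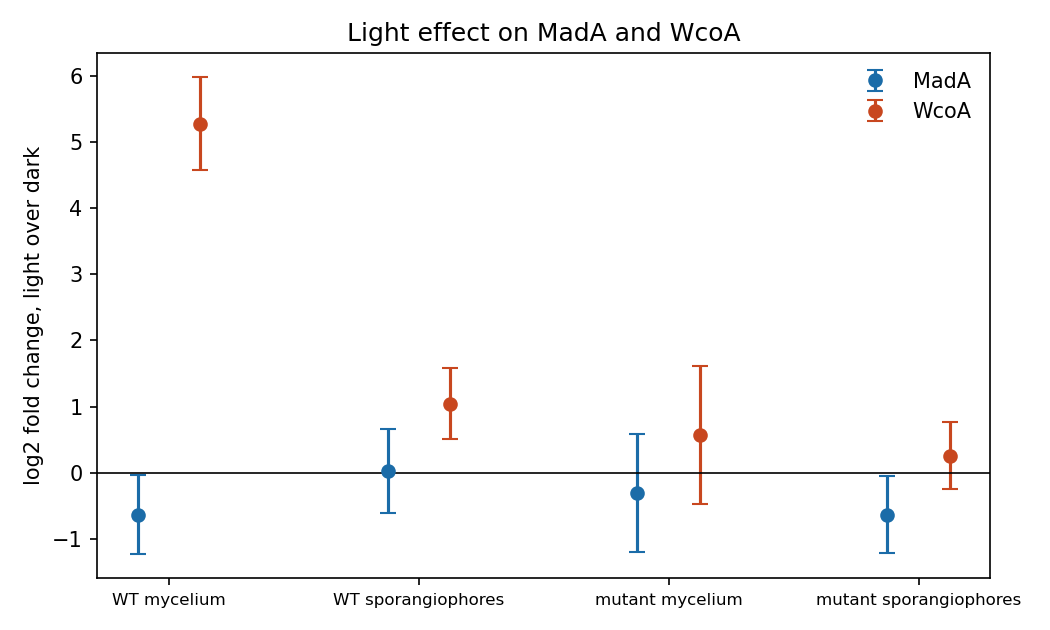
Log2 fold change of light over dark for MadA (blue) and WcoA (red) in the 4 comparisons; points are the authors' deposited folds and bars are approximate 95% intervals. WcoA in WT (wild type) mycelium, at 5.28, stands above all other points, and the MadA points lie between -0.63 and 0.02.

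In wild type mycelium, the authors' deposited table lists WcoA with a log2 fold change of 5.28 (likelihood ratio 215, FDR 6.51e-45). On a linear scale this is 38.8-fold, and the approximate interval runs from 23.8-fold to 63.3-fold. WcoA ranked at place 3 of 14410 genes by p-value. By size of rise it ranked lower, at place 122, and all 122 genes with a fold at least as large were called. Most of those genes drew fewer reads than WcoA. Only 3 genes of the table, WcoA among them, combined a fold that large with an average log2 CPM at least as high as its 6.70. Over the whole table, 9.86% of genes were called higher in light. Among the 1508 genes within 0.5 log2 CPM of WcoA, the share was 20.6%. The approximate standard error of the WcoA fold, 0.36, was close to the median of 0.34 among those genes with similar read numbers.

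MadA gave another picture in the same cultures. The listed value for wild type mycelium was -0.63 in the authors' deposited table, with an unadjusted p of 0.0364 and an FDR of 0.166 by the authors' edgeR test, so it was not called. The approximate interval, from -1.23 to -0.04, corresponds to light levels between 0.427 and 0.973 of the dark level. Over the whole table, 4.18% of genes were called lower, and 15.2% of the 653 genes within 0.5 log2 CPM of MadA were. The median fold of wild type mycelium was 0.39 among genes with a fold other than 0. Measured from that shift, MadA stood at -1.02 and passed the threshold (adjusted p = 0.00658 by a normal approximation), and WcoA stood at 4.89. With the log2 CPM trend removed instead, MadA was at -0.72 and did not pass (adjusted p = 0.0734, the same approximation). With gene span added in coarser bins it was at -0.98 and passed (adjusted p = 0.0110). Whether MadA was called lower here thus depends on the setting. A further feature of this table is the number of folds listed as exactly 0, which was 3193 (22.2%) here and 9 in that of wild type sporangiophores. Neither MadA nor WcoA had such a fold here, and the median above leaves such folds out. Their part in the results was not tested.

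In wild type sporangiophores, the authors' deposited table lists WcoA at 1.04 on the log2 scale (FDR 0.00334). This is 2.06-fold, with an approximate interval from 1.42-fold to 2.98-fold. WcoA ranked at place 554 of 14410 by p-value. Here 7.23% of all genes were called higher, as were 12.7% of the 1508 genes with similar read numbers. With the log2 CPM trend removed the fold was 0.84 and narrowly kept its call (adjusted p = 0.0465 by a normal approximation). The call also rests on the way the likelihood ratio is read. Referred to an F distribution with 12 degrees of freedom (20 libraries less 8 groups), the adjusted p was 0.0624. That number of degrees of freedom assumes 1 fit of all kept libraries. The rise in wild type mycelium had an adjusted p of 2.45e-05 under the same reference. With the 3 degrees of freedom of that comparison's own libraries it did not pass (adjusted p = 0.511), and no gene of the table did.

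The MadA fold in wild type sporangiophores was 0.02 in the authors' deposited table (FDR 0.982 by the authors' edgeR test). The approximate interval spans 0.653-fold to 1.58-fold, so larger shifts in either direction fall outside it. Over the whole table, 1.18% of genes were called lower. Of the 653 genes with similar read numbers, 32.8% were called higher and 0.306% lower in this table, and MadA was in neither set. With the median fold of genes of similar log2 CPM taken off, MadA turned to -0.57 without passing the threshold (adjusted p = 0.406).

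**Figure D2:**
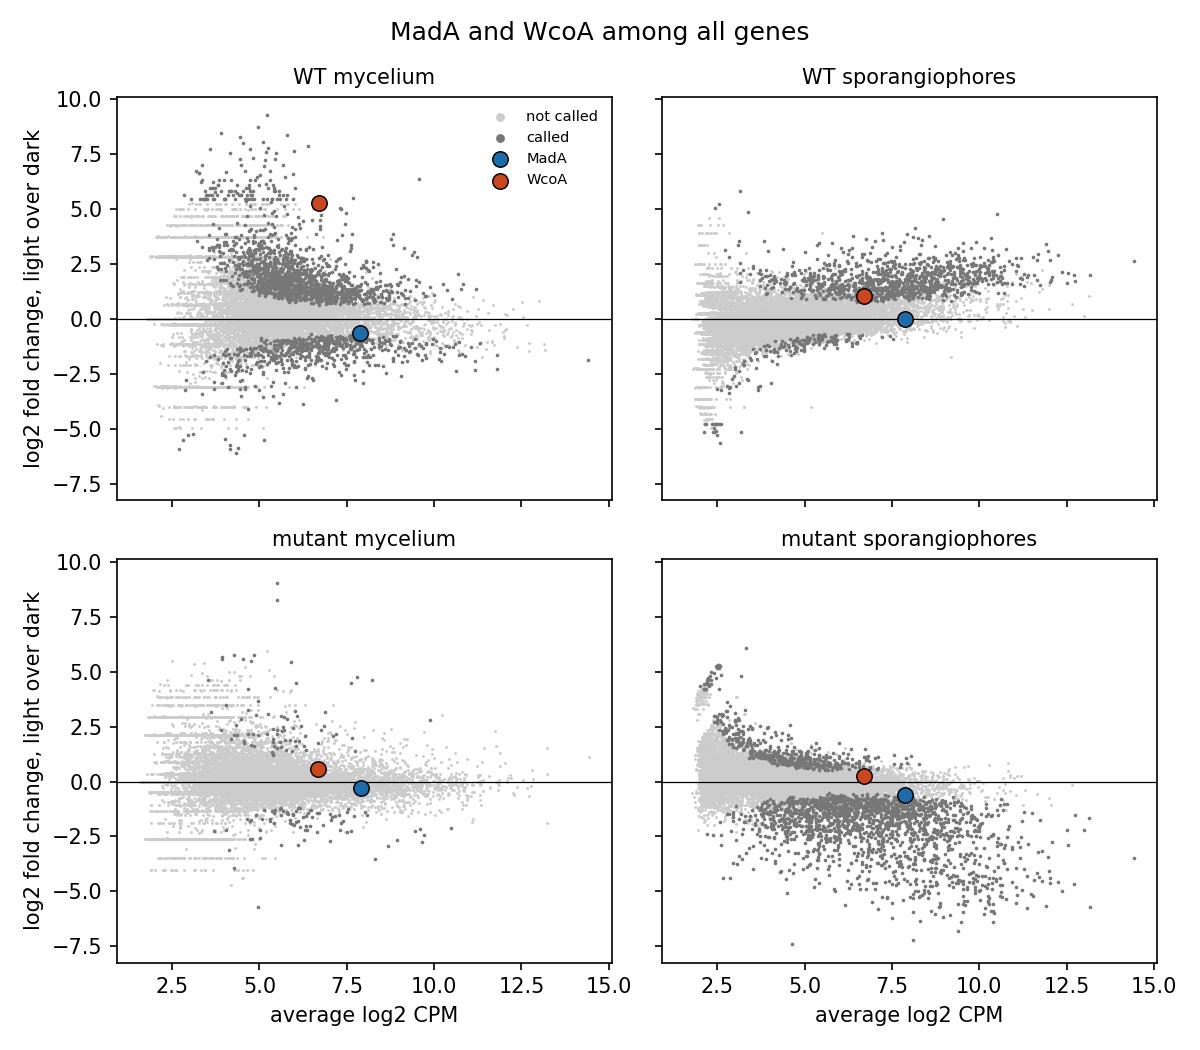
Log2 fold change of light over dark against average log2 CPM for the 14162 genes present in all 4 tables; dark grey points were called at an FDR under 0.05, light grey points were not, and MadA (blue) and WcoA (red) are enlarged. In WT mycelium WcoA, at 5.28, lies above most genes with similar read numbers, whereas MadA lies near 0 in each panel.

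In the mutant, the WcoA folds were positive and not called in either structure. The log2 fold change in mutant mycelium was 0.58 in the authors' deposited table (FDR 0.846 by the authors' edgeR test). Its approximate interval, from 0.724-fold to 3.07-fold, is wide, and a rise of the size seen in wild type sporangiophores lies inside it while the wild type mycelium value of 38.8-fold does not. In mutant sporangiophores the WcoA fold was 0.26 in the authors' deposited table (FDR 0.593), with an approximate interval from 0.840-fold to 1.70-fold. Of the 1508 genes with similar read numbers, 22.1% were called lower there and 1.92% higher. With the log2 CPM trend removed, the WcoA fold there was 0.49 and did not pass (adjusted p = 0.220 by a normal approximation). Calls for a rise were made for 0.541% of genes in mutant mycelium and for 3.31% in mutant sporangiophores.

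For MadA the mutant folds were negative in both structures. They were -0.31 in mutant mycelium (FDR 1) and -0.63 in mutant sporangiophores (unadjusted p 0.0329, FDR 0.146 by the authors' edgeR test) in the authors' deposited tables. The approximate interval ran from -1.20 to 0.58 in mutant mycelium and from -1.21 to -0.05 in mutant sporangiophores. Calls for a fall were made for 0.576% and 12.3% of all genes in these tables. Among the 653 genes with read numbers similar to MadA, 46.1% were called lower in mutant sporangiophores. Once the median fold of genes of similar log2 CPM was taken off, the MadA fold there was -0.03. With log2 CPM and gene span removed together, in 5 bins each way instead of 20 bins of log2 CPM, it was -0.54. The bins of log2 CPM were thus coarser, so that change is not one of gene span alone. Measured from the table's median fold, the MadA fold was -0.68, so its place among similar genes depends on the setting. As listed, its fold there equalled that in wild type mycelium to 2 decimals.

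The average log2 CPM is taken over all libraries of a fit and does not give the reads behind any one fold. The wild type tables and that of mutant sporangiophores list the same average log2 CPM for every gene, 7.87 for MadA and 6.70 for WcoA. MadA drew more reads than 93.7% of genes and WcoA more than 85.6%, counted without correction for gene length, so this does not order the genes by expression. The table of mutant mycelium comes from another fit and lists 7.91 for MadA and 6.68 for WcoA. Relative to the other tables these averages moved by 0.04 and -0.02, while the median gene moved by -0.22.

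Whether the light effect on WcoA differed between structures and strains was tested on the difference of folds, over all genes with a fold other than 0 in both tables. The tables compared share no library. The standard errors were those described above, the test was a two-sided normal approximation, and p-values were Benjamini-Hochberg adjusted over all these genes. The WcoA fold was 4.24 higher, on the log2 scale, in wild type mycelium than in wild type sporangiophores (approximate interval 3.35 to 5.12, adjusted p = 1.52e-17), which is an 18.8-fold larger response. Of 11213 genes tested, 19.9% differed between these structures, and WcoA ranked at place 5 by p-value. Between wild type and mutant mycelium the WcoA fold differed by 4.70 (3.44 to 5.96, adjusted p = 1.30e-10), or 26.0-fold. Here 14.5% of 10462 genes differed, and WcoA ranked at place 20.

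In sporangiophores, a strain difference for WcoA was not established. The fold was 0.79 higher in the wild type than in the mutant, with an approximate interval from 0.05 to 1.52, an unadjusted p of 0.0363 and an adjusted p of 0.133 by the normal approximation. In this test 19.6% of 14401 genes differed. With the log2 CPM trend removed, the WcoA difference was 0.34 (adjusted p = 0.613, the same test). The call of WcoA in one strain and its absence in the other is thus not shown to be a difference between them. Between mutant mycelium and mutant sporangiophores the WcoA folds differed by 0.32 (-0.84 to 1.48, adjusted p = 0.792), where 11.9% of 11430 genes differed.

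For MadA no difference passed the threshold. Its fold in wild type mycelium was lower than in wild type sporangiophores by a difference of -0.66 (-1.53 to 0.21, adjusted p = 0.307). Wild type and mutant mycelium differed by -0.33 (-1.40 to 0.74, adjusted p = 0.741), and wild type and mutant sporangiophores by 0.65 (-0.21 to 1.52, adjusted p = 0.323). The mutant structures differed by 0.32 (-0.74 to 1.39, adjusted p = 0.768). Across these pairs the intervals leave room for differences from -1.53 to 1.52 on the log2 scale, and they do not reach the WcoA differences of 4.24 and 4.70.

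**Figure D3:**
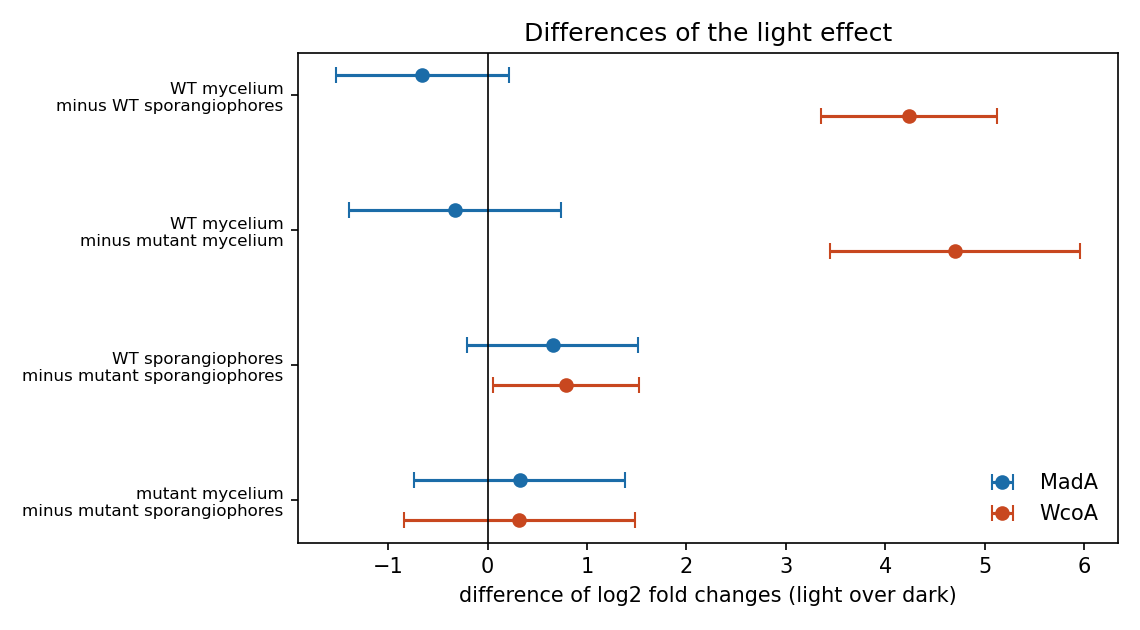
Differences between the log2 fold changes of light over dark for the 4 pairs of comparisons, with approximate 95% intervals, for MadA (blue) and WcoA (red). The WcoA differences of 4.24 and 4.70 that involve WT mycelium lie far from 0, and each MadA interval includes 0.

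**Figure D4:**
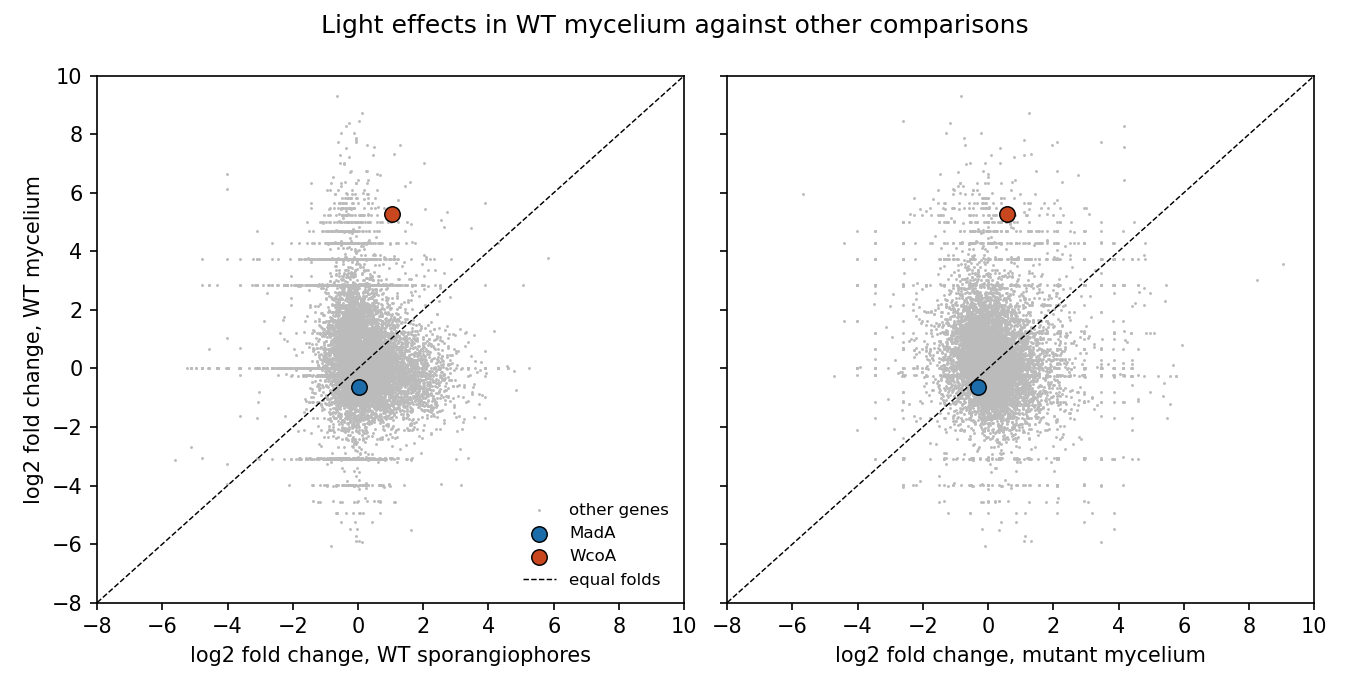
Log2 fold change in WT mycelium (vertical) against that in WT sporangiophores (left) and in mutant mycelium (right) for the 14162 genes of all tables; the dashed line marks equal folds. WcoA (red) lies high above the line in both panels, at 5.28 against 1.04 and 0.58, while MadA (blue) lies near the line.

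Set beside each other inside a table, WcoA had the higher fold in all 4 comparisons. The gap, WcoA minus MadA on the log2 scale, was 5.91 in wild type mycelium, with an approximate interval from 4.99 to 6.83. These intervals treat the genes as independent, although both were measured in the same libraries. The gap was 1.02 in wild type sporangiophores (0.19 to 1.85) and 0.89 in mutant sporangiophores (0.12 to 1.66). With the log2 CPM trend removed, the mutant sporangiophore gap was 0.52 and its interval, from -0.25 to 1.29, included 0. In mutant mycelium the gap was 0.88 with an interval from -0.49 to 2.25, which includes 0. The gaps of the last 3 comparisons lie well inside each other's intervals, and the interval of wild type mycelium overlaps none of them.

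Calls were also counted across the tables. Of the 14162 genes in all 4 tables, 114 were called higher in both wild type structures, which is 8.02% of the rises in mycelium and 10.9% of those in sporangiophores. These shares are near the 7.23% and 9.86% of all genes called higher in the other structure. WcoA was 1 of 39 genes (0.275%) called higher in both wild type tables and in neither mutant table. Being called in no table, as MadA was, held for 70.3% of genes. It was less common among the 901 genes with at least the read number of MadA, where it held for 183 (20.3%).

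The genes with the most similar pattern were sought by Euclidean distance over the 4 log2 folds, among 6959 genes with a log2 CPM at or above the median of each table. WcoA had few close neighbours, with 3 genes within a distance of 1, against 877 for MadA. The nearest to WcoA was PHYBLDRAFT_183833 (distance 0.70), which in the wild type had log2 folds of 4.93 (mycelium) and 1.61 (sporangiophores) and in the mutant of 0.68 and 0.08, in the authors' deposited tables. Like WcoA it was called in both wild type structures (FDR 9.26e-16 and 0.0103). PHYBLDRAFT_77351 (distance 0.78) had folds of 5.47, 0.78, 0.53 and -0.45 in the same order and was called in wild type mycelium (FDR 1.51e-30) and not in wild type sporangiophores (FDR 0.0572) in the authors' deposited tables. The next, PHYBLDRAFT_139347, PHYBLDRAFT_71765 and PHYBLDRAFT_152465, had folds between 4.998 and 5.25 in wild type mycelium in the authors' deposited table, but were not called there (FDR 0.0516, 0.0848 and 0.0863). Their likelihood ratios there, from 5.93 to 7.18, were far below the 215 of WcoA. Each of these 3 had between 27 and 40 other genes within 0.01 of its fold in wild type mycelium, whereas WcoA had 0. That count does not set them apart, because PHYBLDRAFT_77351 had 23, with a likelihood ratio of 146. As the 3 were not called and had low likelihood ratios, their likeness to WcoA is one of listed fold only. These IDs carry no symbol in the gene table.

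The nearest genes to MadA were PHYBLDRAFT_79125, PHYBLDRAFT_180130, PHYBLDRAFT_188898, PHYBLDRAFT_184014 and PHYBLDRAFT_177733, at distances from 0.12 to 0.22. Of these, PHYBLDRAFT_184014 was called lower in wild type mycelium (-0.75, FDR 0.0396) and PHYBLDRAFT_177733 in mutant sporangiophores (-0.77, FDR 0.0274) in the authors' deposited tables. As a pattern of small folds lies near that of many genes, this neighbourhood was not distinctive. MadA and WcoA were 6.13 apart, beyond the median distance of 5.29 from WcoA to the other genes.

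**Figure D5:**
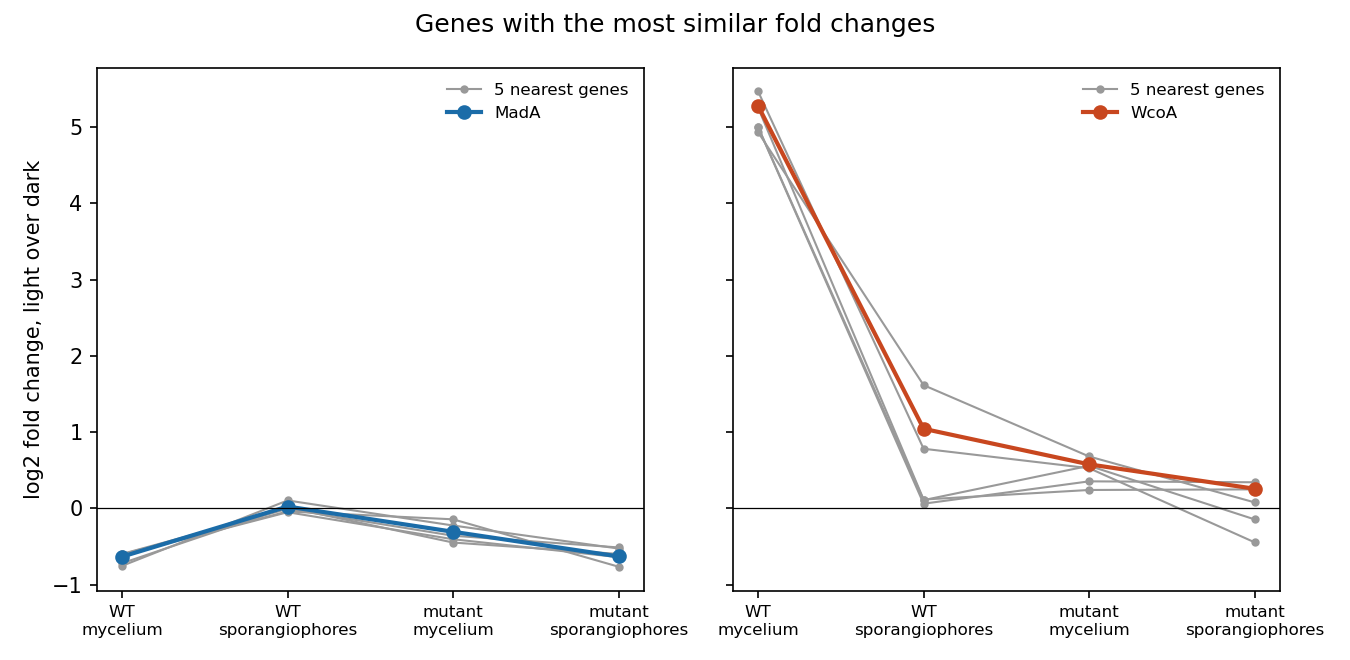
Log2 fold change of light over dark across the 4 comparisons for MadA (left, blue) and WcoA (right, red) with the 5 genes of most similar folds in grey. The neighbours were chosen by these folds; those of WcoA spread from 0.06 to 1.61 in WT sporangiophores, and 3 of them were not called in WT mycelium.

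The remaining White Collar genes with a symbol are MadB, WctB, WctC and WctD, all of the White Collar 2 type, the partner of the photoreceptor. All 4 were called higher in wild type mycelium, as WcoA was, with a median log2 fold of 3.95 against 0 over all genes in the authors' deposited table, where 9.86% of all genes were called higher. The calls of MadB and WctC ended on centring (adjusted p = 0.131 and 0.154) and under the F reference with 12 degrees of freedom (0.0579 and 0.118). That of WctC also ended with the log2 CPM trend removed (0.67, adjusted p = 0.310). WctD, at 6.61, and WctB, at 8.45, had larger folds than WcoA there, with approximate intervals of 5.54 to 7.68, which overlaps that of WcoA (4.57 to 5.98), and 6.20 to 10.71, which does not. WctB drew fewer reads, with an average log2 CPM of 3.89. MadB (0.96) and WctC (1.30) lay between MadA and WcoA in the authors' deposited table. In wild type sporangiophores 1 of the 4, MadB with 0.97 (FDR 0.0249), was called in the authors' deposited table, beside 7.23% of all genes called higher. That call ended with the log2 CPM trend removed (0.38, adjusted p = 0.617), with gene span added in coarser bins (0.14, adjusted p = 0.892) and under the F reference (adjusted p = 0.128). By the authors' edgeR test none was called in mutant mycelium (0 of 4, and 1 at an unadjusted p under 0.05). Over all genes only 0.541% were called higher and 0.576% lower there, so 0 of 4 is near those shares. WctD had an approximate interval of 0.55 to 4.97 and an FDR of 0.309 in mutant mycelium in the authors' deposited table. In mutant sporangiophores MadB was called lower, at -1.26 (FDR 0.00918) in the authors' deposited table, where 12.3% of all genes were called lower. It was no longer called with the log2 CPM trend removed (-0.66, adjusted p = 0.285), with gene span added in coarser bins (-0.41, adjusted p = 0.581) or under the F reference (adjusted p = 0.0590).

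Genes of carotene and isoprenoid synthesis, a pathway that light is known to induce in Phycomyces through MadA, were read beside both photoreceptor genes. Of 7 measured, 1 was called higher and 2 lower in wild type mycelium, with a median log2 fold of -0.13 against 0 over all genes, beside 9.86% and 4.18% of all genes called. In wild type sporangiophores, where 7.23% of all genes were called higher and 1.18% lower, 1 was higher and 0 lower (median -0.01 against -0.05 over all genes). In both structures the gene called higher was carC, at 2.45 and 2.82 in the authors' deposited tables. The genes called lower in wild type mycelium were CarG2 (-3.86, FDR 7.44e-13) and carRA2 (-1.13, FDR 0.0153) in the authors' deposited table, and carRA2 did not pass under the F reference (adjusted p = 0.0821). CarB, the phytoene dehydrogenase gene, had -0.13 and 1.07 and was not called (FDR 1 and 0.142) in those authors' deposited tables. In mutant mycelium 0 of the 7 were higher and 3 lower (median -1.04 against 0), beside 0.541% of all genes called higher and 0.576% lower. They were CarB (-2.65, FDR 1.30e-05), CarRA (-2.28, FDR 2.34e-04) and CarG2 (-2.07, FDR 5.82e-04) in the authors' deposited table, and none of the 3 passed under the F reference (adjusted p from 0.103 to 0.165). Its 12 degrees of freedom assume 1 fit of all kept libraries, while the mutant mycelium table came from another. In mutant sporangiophores 0 of the 7 were called by the authors' edgeR test, and 0 had an unadjusted p under 0.05 (median 0.09 against 0.05 over all genes). Of all genes there, 3.31% were called higher and 12.3% lower.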

How the data were processed

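Alignment used Bowtie and the tests edgeR, per the submitters' processing notes. Per the labels' protocols, a MessageAmp II kit was used on RNA from a Trizol extraction. Tool versions, the genome build, annotation, counting rule and strand setting are not given in the sources used here. The deposited tables hold a log2 fold change, an average log2 CPM, a likelihood ratio score and a p-value with its FDR, per the file headers. Each deposited p-value was checked to follow from its likelihood ratio by a chi-square distribution (degrees of freedom: 1), and each FDR by Benjamini-Hochberg adjustment. Library depth is unknown. The title of the mutant mycelium table spells the dark strain without its last digit and was read as ΔL51.

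Row IDs were matched to the number in Phybl2 locus tags (14355 of 14410, 99.6%). As the authors' build is not given, no coordinates are printed. No sequences were used, so reads shared between related genes and protein likeness, which was planned, were not examined. The members, lists and rules were chosen with earlier results of these data known. Named genes were the members, listed symbols of White Collar, other light and carotene genes (11 of 16 found), and the 5 nearest genes by fold. CryA, MadC, WcoB, WctA and carS had no symbol to match. Python 3.11.15, NumPy 2.4.6, pandas 2.3.3 and SciPy 1.17.1 were used. The approximate tests were run on simulated counts with a fixed, known spread between replicates and an assumed depth. That check does not cover a spread estimated from few libraries, as in these data. Alternatives were centring, trend removal, F references, read filters and a fold bound. Trend removal used 20 bins of log2 CPM, or 5 bins each of log2 CPM and gene span, so adding span also coarsened the log2 CPM bins.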

Additional observations from a re-analysis of the deposited data

Results flagged for a closer look

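The light effect on WcoA was larger in wild type mycelium than in wild type sporangiophores, by 4.24 on the log2 scale, and this was picked out because the difference between structures passed its own test (adjusted p = 1.52e-17, normal approximation). It was also larger in wild type than in mutant mycelium, by 4.70 (adjusted p = 1.30e-10, the same test), a difference between strains. Both rest on the wild type mycelium table, whose dark group kept 2 libraries. The WcoA fold in light was called in both wild type tables. No value per library was used, so how many of the libraries show these directions is not given.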

How the results depend on the processing

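No paired analysis was possible because values per library were not used here; leaving out replicates and putting back the 4 set-aside libraries were not run either. The WcoA differences that passed kept their call in all 6 alternatives run. Among these, the filter at a log2 CPM of at least 0 changed no adjusted p and so tested nothing, and it is also among the 16 values below. A reference on each comparison's own libraries was not run for the differences. Their t reference took 12 degrees of freedom from 1 fit of all kept libraries, while the mutant mycelium table came from another. The called WcoA rises lost their call in 4 of 16 values. In wild type sporangiophores (1.04) this happened under both F references and for a log2 fold beyond 1. In wild type mycelium (5.28) it happened with the F reference on that comparison's own 3 degrees of freedom (adjusted p = 0.511). References on a comparison's own libraries called 0 genes in any table, so those losses are not particular to WcoA. At 1.04, with a standard error of 0.27, the sporangiophore fold was too near the bound of 1 to pass it. MadA in wild type mycelium gained a call when centred (-1.02) and with the trend on log2 CPM and gene span removed in coarser bins (-0.98), and not with the trend on log2 CPM alone (-0.72). The MadA fold in wild type sporangiophores turned to -0.57 and -0.038 with those trends removed, and with the log2 CPM trend removed its sporangiophore strain difference turned to -0.54 and its mutant structure difference to -0.16, none called; the cause was not tested.

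As deposited, the genes called higher and lower numbered 1421 and 603 in wild type mycelium, 1042 and 170 in wild type sporangiophores, 77 and 82 in mutant mycelium and 477 and 1779 in mutant sporangiophores. Counts that moved by over 1.5 times follow in that form. Centring gave 907 and 1344 in wild type mycelium. With the log2 CPM trend removed, 1303 were lower in wild type mycelium and 467 higher in wild type sporangiophores. Gene span added in coarser bins gave 940 and 1068, and 388 higher, in the same structures. The F reference with 12 degrees of freedom gave 756 and 241 in wild type mycelium, 476 and 6 in wild type sporangiophores, 8 and 2 in mutant mycelium and 130 higher in mutant sporangiophores; it assumes 1 fit of all 20 libraries, while the mutant mycelium table came from another. Log2 folds beyond 1 numbered 249 and 38, 88 and 0, 8 and 2, and 15 and 707 in the same order. With genes under the median log2 CPM left out, 274 were higher in mutant sporangiophores. Of the 5 nearest genes, 1 for MadA and 3 for WcoA were shared after either trend was removed, alternatives chosen after seeing the data.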
